A study of Drosophila melanogaster with 16 samples.

Results

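Transcripts that differ between the sexes of Drosophila melanogaster were followed library by library in whole larvae of the third instar from a control line and from an ERK7 mutant line. The genes were taken by symbol: roX1 and roX2, the noncoding RNAs of X chromosome dosage compensation, msl-2, Sxl and tra, which connect sex determination to it, and the yolk protein genes Yp1, Yp2 and Yp3. Of these 8 symbols, 6 were among the 10459 genes of the table, and Yp1 and Yp2 were not analysed here. The question was whether the levels fit the male larvae that the methods of the study state, since the sample labels give no sex.

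There were 16 libraries in 4 groups of 4: fed control, fed mutant, control fasted for 6 h and mutant fasted for 6 h, the fasting medium being PBS with agarose. The mutant larvae were of 1 line, ERK7 1, which carries a short deletion with a frameshift and is a likely null allele of the kinase ERK7. The controls, labelled wild type, came from a line that went through the same CRISPR screening without a mutation in ERK7. Both lines were backcrossed to w1118 and kept as balanced stocks. Larvae of all groups were raised from hatching at equal density. By the labels, eggs were laid over 3 h, and after 24 h the animals spent 48 h on standard food before the fed and fasted groups parted, whereas the methods of the study give a later age at that point. The number of larvae behind a library is not given in the sources used here, and the text takes the libraries as separate samples. If they are not, the p-values measure technical spread only.

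In Drosophila males, transcription of the single X chromosome is raised by the MSL complex, which joins the proteins MSL1, MSL2, MSL3, MLE and MOF with the roX RNAs. In females, Sex-lethal protein (SXL) blocks translation of msl-2 mRNA, so the complex does not form and roX RNA does not accumulate. SXL also directs splicing of tra, whose protein, made in females only, sets the splicing of dsx and fru. msl-2, Sxl and tra are thus transcribed in both sexes, and their sex difference lies in splicing and translation, which a count of reads per gene does not show. The yolk proteins are made mainly by the fat body and ovary of adult females.

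By the annotation of the release 6 assembly, roX1 (FBgn0019661) lies on chromosome X from 3857230 to 3862697 on the minus strand, and its exons cover 5468 bases. Of these, 392 bases also belong to exons of ec on the other strand. roX2 (FBgn0019660) lies on chromosome X from 11579065 to 11580432 on the plus strand, with 1368 exon bases. Both are annotated as noncoding RNA genes. Yp3 (FBgn0004047) lies on chromosome X from 13759546 to 13761547 on the plus strand, with 1868 exon bases. Sxl (FBgn0264270) lies on chromosome X from 7074550 to 7098053 on the minus strand, with 25 annotated transcripts and 9192 exon bases, so its gene level sums male and female splice forms. The autosomal genes were msl-2 (FBgn0005616), on chromosome 2L from 3462218 to 3466112 on the minus strand with 3843 exon bases, and tra (FBgn0003741), on chromosome 3L from 16590059 to 16591050 on the minus strand with 862 exon bases. Of the tra exon bases, 74 are shared with l(3)73Ah on the other strand. The methods state that reads were counted by strand, but the library kit in the labels names no step that marks it, so reads of ec and of l(3)73Ah may be included.

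Levels are the deposited values, reads normalized to library size (RPM), and each is a whole number of reads, 1 read being 0.0472 to 0.0642 RPM. The libraries held 16482553 to 20601418 reads. All 6 genes had reads in all 16 libraries. Per length, on the scale of RPM per kilobase of exon (RPKM) averaged over the 16 libraries, the levels were low. roX1 was at 0.486 RPKM, and only 3.53% of the 10305 genes with a known length were lower, whereas the median gene was at 7.98 RPKM. Yp3 was at 0.778 RPKM with 7.68% of genes below it, tra at 1.42 with 15.6%, roX2 at 1.52 with 16.5%, Sxl at 2.38 with 23.5% and msl-2 at 4.12 with 34.0%. Both roX RNAs were thus low per length. The libraries were poly(A)-selected, and what set the roX levels was not tested.

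The mutated gene does not check the labels, because the deletion leaves a transcript to count. Erk7 mRNA was at 0.634 to 3.05 RPM in fed controls, 5.58 to 10.2 RPM in fed mutants, 1.83 to 9.73 RPM in fasted controls and 5.14 to 8.03 RPM in fasted mutants. Fold changes below are log2 differences of RPM + 1 from limma over all 16 libraries, given with the SE, and the threshold for a call was 0.05 after Benjamini-Hochberg adjustment over all genes. Because of the added 1, they understate the change of genes near 1 RPM, so ratios of mean RPM stand beside them.

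Each count of the 6 genes called stands beside the share of all genes called in the same comparison, and none is read as particular to them. Between fed mutants and fed controls, 4 of 6 were called, roX2 and msl-2 higher and tra and Yp3 lower, where 51.5% of all genes were called, 25.6% higher and 26% lower. Between fasted mutants and fasted controls, 3 of 6 were called, roX2 and msl-2 higher and tra lower, where 44.7% of all genes were called, 23.8% higher and 20.9% lower. On fasting, 2 of 6 were called in controls, roX1 and Sxl, both higher, against 69.7% of all genes, 37.5% higher and 32.2% lower. In mutants, roX1 alone was called, higher, against 48.7% of all genes, 23.7% higher. The interaction of genotype and fasting called 0 of 6 in limma, edgeR and DESeq2, and 0 of 6 had an unadjusted p under 0.05 in any of these tools, whereas limma called 31.9% of all genes. The groups did not overlap for 5 of the 6 genes by genotype in fed larvae, where 51.2% of all genes did not overlap. They did not overlap for 1 by genotype in fasted larvae (33.3% of all genes), 1 by fasting in controls (57.7%) and 4 by fasting in mutants (45.8%).

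**Figure D1:**
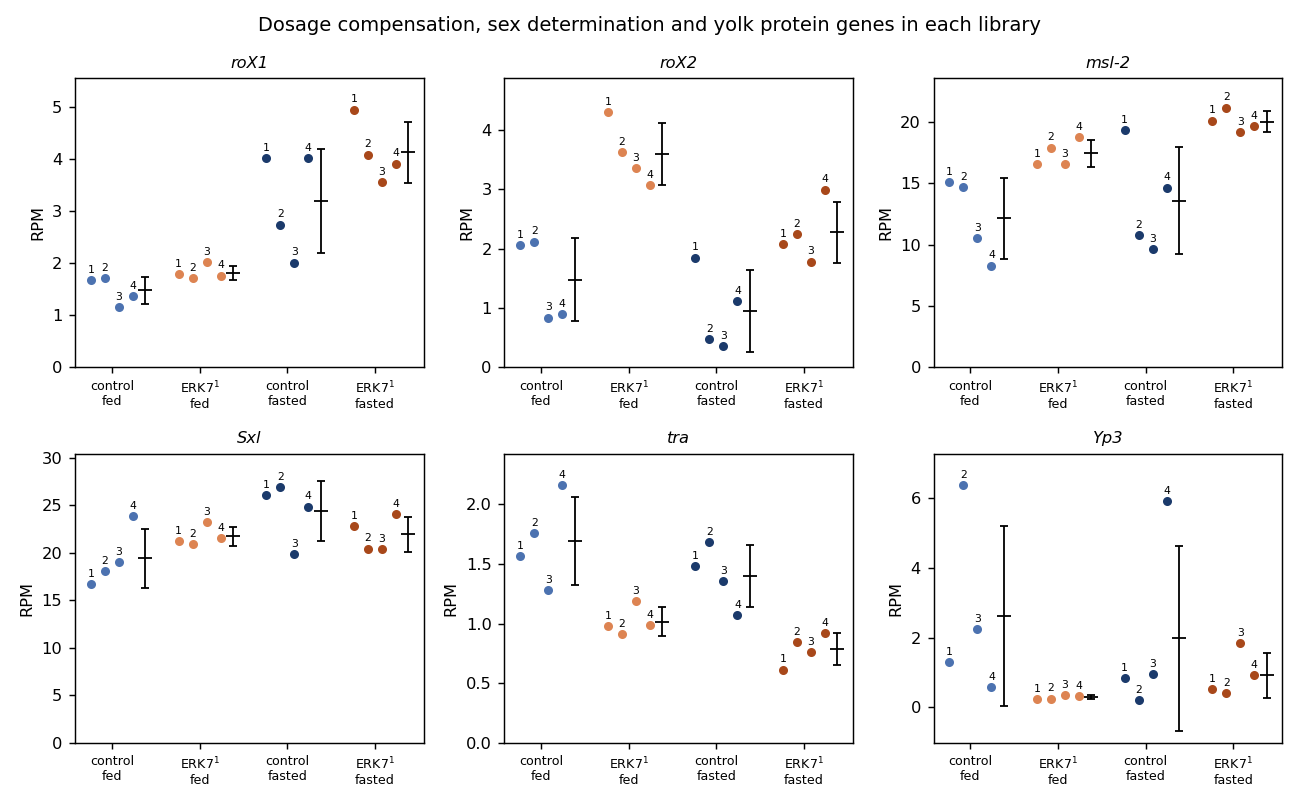
Level of each of the 6 genes in RPM (vertical axis, linear scale that includes 0 and runs below it for the SD bar of Yp3) in each of the 16 libraries, by group. Numbers at the points are the replicate numbers, and the bar beside each group is its mean with the SD (n = 4). roX1 is high in the fasted groups (2.01 to 4.95 RPM), roX2 and msl-2 have higher means in the mutant groups, tra is higher in the control groups, and Yp3 is carried by single control libraries at 6.36 and 5.91 RPM.

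roX1, the longer of the redundant roX RNAs, followed fasting. In fed controls it was at 1.68, 1.71, 1.16 and 1.37 RPM in replicates 1 to 4, which is 18 to 33 reads per library. Fed mutants had 1.78, 1.72, 2.02 and 1.76 RPM. Fasted controls had 4.02, 2.74, 2.01 and 4.02 RPM, and fasted mutants 4.95, 4.09, 3.56 and 3.92 RPM. Every fasted library was above every fed library of its genotype. The ratio of mean RPM on fasting was 2.16 in controls, with a log2 fold change of 0.73 (± 0.14 SE, adjusted p = 0.000372 by limma). In mutants it was 2.27, with 0.86 (± 0.14 SE, adjusted p = 0.000165 by limma). The difference between these fasting responses was 0.12 on the log2 scale (95% interval -0.31 to 0.56, limma adjusted p = 0.665). Both fasting calls were kept without any 1 library and under every other setting that tested roX1, which a filter at the 25th percentile of level leaves out.

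Genotype gave no call for roX1. The fed groups did not overlap, but the gap between them was small (1.71 against 1.72 RPM), and the log2 fold change was 0.19 (95% interval -0.12 to 0.50, limma adjusted p = 0.285). Quantile normalization turned the direction, to -0.30 with a limma adjusted p of 0.0193. In fasted larvae the log2 fold change was 0.32 (± 0.14 SE, adjusted p = 0.0866 by limma), and it was called without control replicate 1 (0.41, limma adjusted p = 0.0302) or without control replicate 4 (0.41, limma adjusted p = 0.0342). In the order of group means, fasted mutants and fasted controls did not differ at the threshold, fed mutants were below fasted controls by 0.54 (log2 -0.54, limma adjusted p = 0.00374, a contrast in which 70% of all genes were called, 37.3% higher and 32.7% lower), and fed mutants and fed controls did not differ at the threshold.

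roX2, the shorter roX RNA, differed by genotype instead, with higher means in the mutant groups, the only groups in which it met the authors' filter. Fed controls had 2.05, 2.12, 0.835 and 0.898 RPM and fed mutants 4.31, 3.64, 3.36 and 3.08 RPM, without overlap. Fasted controls had 1.85, 0.474, 0.355 and 1.12 RPM, the lowest being 6 reads, and fasted mutants 2.08, 2.24, 1.78 and 3.00 RPM. Among fasted larvae only control replicate 1 reached into the mutant range. Mean RPM was 2.44 times higher in fed mutants than in fed controls, with a log2 fold change of 0.93 (± 0.23 SE, adjusted p = 0.0035 by limma). In fasted larvae the ratio was 2.39 and the log2 fold change 0.80 (± 0.23 SE, adjusted p = 0.013 by limma). Both calls were kept without any 1 library, with adjusted p-values up to 0.0143 and 0.0456.

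On fasting, roX2 had a log2 fold change of -0.36 in controls (95% interval -0.86 to 0.13, limma adjusted p = 0.167) and of -0.50 in mutants (± 0.23 SE, adjusted p = 0.0903 by limma), the opposite sign to roX1. In mutants the fed and fasted libraries did not overlap, and the fall was called under quantile normalization (-0.58, limma adjusted p = 0.0107) and in a fit of the 8 mutant libraries alone (-0.50, limma adjusted p = 0.0087). In controls it was called under quantile normalization (-0.71, limma adjusted p = 0.00207) and without fasted control replicate 1 (-0.57, limma adjusted p = 0.028). The order of group means was fed mutant, fasted mutant, fed control and fasted control, and no neighbours in this order differed at the threshold, although fed mutants were above fasted controls by 1.30 (limma adjusted p = 0.000171).

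msl-2, the only MSL protein gene whose product is limited to males by SXL, had the highest per-length level of the 6 genes. Fed controls had 15.1, 14.7, 10.5 and 8.29 RPM and fed mutants 16.6, 17.9, 16.6 and 18.8 RPM, again without overlap. Fasted controls had 19.3, 10.8, 9.63 and 14.7 RPM and fasted mutants 20.1, 21.2, 19.2 and 19.7 RPM. The mutant libraries were tightly grouped and the control libraries spread, with an SD of 1.09 RPM in fed mutants and 3.30 RPM in fed controls, and of 0.853 RPM in fasted mutants and 4.40 RPM in fasted controls. Mean RPM was 1.44 times higher in fed mutants, with a log2 fold change of 0.52 (± 0.19 SE, adjusted p = 0.0313 by limma), and 1.47 times higher in fasted mutants, with 0.57 (± 0.19 SE, adjusted p = 0.0249 by limma).

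The calls for msl-2 leaned on single libraries. The call in fed larvae was lost without control replicate 3 or 4 or mutant replicate 2 or 4, with log2 fold changes of 0.47, 0.37, 0.51 and 0.49 and adjusted p-values up to 0.109. In fasted larvae it was lost without control replicate 2 or 3 or mutant replicate 2, with 0.49, 0.44 and 0.55 and adjusted p-values up to 0.0846. Fasting gave no call for msl-2, with 0.14 in controls (95% interval -0.27 to 0.55, limma adjusted p = 0.52) and 0.19 in mutants (95% interval -0.22 to 0.60, limma adjusted p = 0.45). No neighbours in the order of group means, which was fasted mutant, fed mutant, fasted control and fed control, differed at the threshold. Across both factors, fasted mutants were above fed controls by 0.71 (limma adjusted p = 0.00372), a contrast in which 69% of all genes were called, 36.5% higher and 32.5% lower.

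Sxl, the master switch of female development whose transcripts occur in both sexes, had group means within 1.26 times of each other. Fed controls had 16.7, 18.1, 19.0 and 23.8 RPM and fed mutants 21.2, 20.9, 23.2 and 21.6 RPM. Fasted controls had 26.1, 26.9, 19.9 and 24.9 RPM and fasted mutants 22.8, 20.4, 20.4 and 24.1 RPM. The groups overlapped in all 4 comparisons. Mean RPM was 1.26 times higher in fasted than in fed controls, with a log2 fold change of 0.32 (± 0.11 SE, adjusted p = 0.0162 by limma), a call that was lost without fed control replicate 1 (0.26, limma adjusted p = 0.0555) and in a fit of the 8 control libraries alone (0.32, limma adjusted p = 0.0589). In mutants fasting gave 0.01 (95% interval -0.22 to 0.24, limma adjusted p = 0.951). The fasting responses of the genotypes differed by -0.31 (95% interval -0.63 to 0.02, limma adjusted p = 0.131), and this difference was called without fed control replicate 4 (-0.41, limma adjusted p = 0.0337) or without fasted control replicate 3 (-0.40, limma adjusted p = 0.0361). Genotype gave 0.17 in fed and -0.14 in fasted larvae, neither called. No neighbours in the order of means differed at the threshold.

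tra, whose splicing SXL controls, was lower in mutants, and it met the authors' filter only in the control groups. Fed controls had 1.57, 1.76, 1.28 and 2.17 RPM and fed mutants 0.977, 0.909, 1.19 and 0.990 RPM. Fasted controls had 1.48, 1.69, 1.36 and 1.07 RPM and fasted mutants 0.613, 0.848, 0.764 and 0.919 RPM. Mutants lay below controls without overlap in both states, on 13 to 41 reads per library. Mean RPM was 1.67 times lower in fed mutants than in fed controls and 1.78 times lower in fasted mutants than in fasted controls. The log2 fold changes were -0.41 (± 0.10 SE, adjusted p = 0.00326 by limma) and -0.42 (± 0.10 SE, adjusted p = 0.00476 by limma), and both calls were kept without any 1 library, with adjusted p-values up to 0.012 and 0.0187. Fasting gave -0.16 in controls and -0.18 in mutants, neither of them called, although quantile normalization called the former (-0.52, limma adjusted p = 0.00358), as did the fit without fed control replicate 3 (-0.24, limma adjusted p = 0.0458). In the order of means, fed mutants stood below fasted controls (-0.25, limma adjusted p = 0.0402), and the neighbours on either side of that step did not differ at the threshold.

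Yp3, which encodes a yolk protein, was low and erratic, and it met the authors' filter only in fed controls. Fed controls had 1.30, 6.36, 2.25 and 0.581 RPM, from 11 to 123 reads, and fed mutants 0.230, 0.253, 0.362 and 0.33 RPM, from 4 to 7 reads. Fasted controls had 0.846, 0.211, 0.945 and 5.91 RPM and fasted mutants 0.519, 0.399, 1.83 and 0.919 RPM. A single control library stood above the rest in each state, fed replicate 2 and fasted replicate 4. In fed larvae mean RPM was 8.93 times lower in mutants, with a log2 fold change of -1.24 (± 0.49 SE, adjusted p = 0.0454 by limma). That call was lost without control replicate 2 (-0.82, limma adjusted p = 0.158), without control replicate 3 (-1.21) or without any 1 of the 4 mutant libraries (-1.27 to -1.22), with centring of each library on its median (-1.19, limma adjusted p = 0.0514) and with the replicate number as a block (-1.24, limma adjusted p = 0.0713). edgeR and DESeq2 on the reads gave -3.13 and -3.18, with adjusted p-values of 0.0139 and 0.000621. The other comparisons of Yp3 gave no call, with wide intervals at this depth and spread, such as -1.43 to 0.66 on fasting in controls and -0.58 to 2.37 for the interaction.

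**Figure D2:**
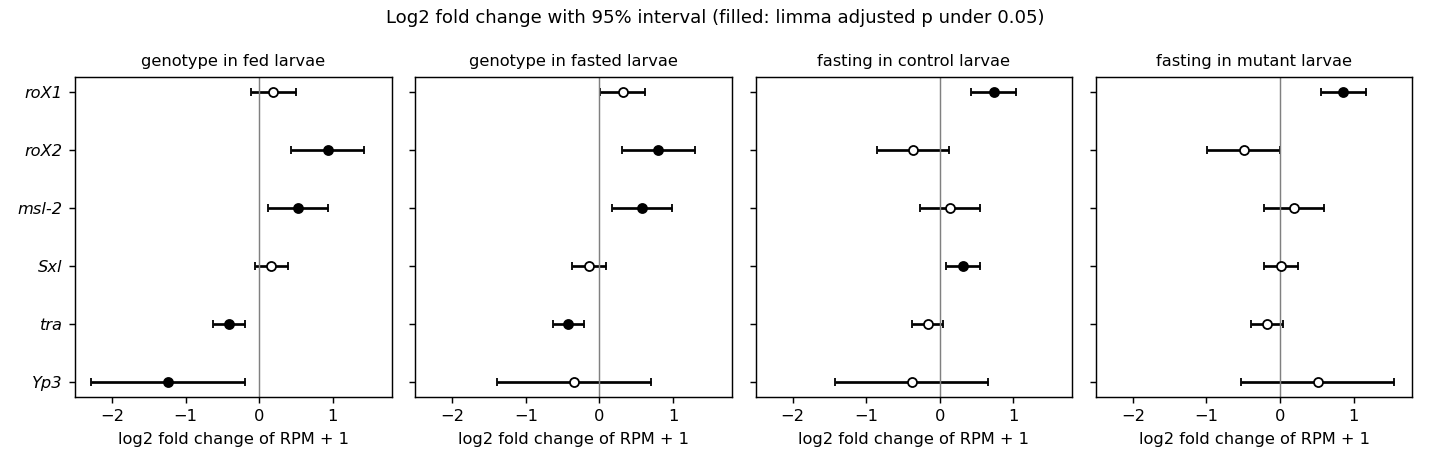
Log2 fold change of RPM + 1 of the 6 genes (horizontal axis) with its 95% interval from limma, in the 4 comparisons, with filled points for an adjusted p under 0.05. roX2 and msl-2 are filled to the right in both genotype comparisons and tra to the left, while roX1 is filled in both fasting comparisons (0.73 and 0.86).

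The list of partners of MSL2 and roX in the complex held msl-1 (scaffold), msl-3 (a chromodomain protein), mle (RNA helicase), mof (the acetyltransferase of histone H4), Clamp (a zinc finger protein that binds the X) and JIL-1 (a histone H3 kinase), and all 6 were measured. Of these, 1 was called higher in fed mutants and 2 in fasted mutants, beside 25.6% and 23.8% of all genes, so the list stood near the background, with list medians of 0.08 and 0.18 on the log2 scale against -0.02 and 0.00 over all genes. msl-3 was the one called in both. It was at 9.66 to 14.7 RPM in fed controls, 14.8 to 16.0 RPM in fed mutants, 12.4 to 17.4 RPM in fasted controls and 18.3 to 23.1 RPM in fasted mutants. Its groups did not overlap by genotype, with log2 fold changes of 0.37 (± 0.12 SE, adjusted p = 0.0158 by limma) in fed and 0.47 (± 0.12 SE, adjusted p = 0.00608 by limma) in fasted larvae. JIL-1 was called higher in fasted mutants by 0.15 (± 0.05 SE, adjusted p = 0.0376 by limma). msl-1, mle, mof and Clamp had log2 fold changes by genotype of -0.12 to 0.31, none of them called. On fasting, JIL-1 fell in controls (-0.37, limma adjusted p = 2.35e-05) and in mutants (-0.34, limma adjusted p = 0.000102), while msl-3 and mof rose in mutants, by 0.37 and 0.42 with limma adjusted p-values of 0.0171 and 0.0182.

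Of 16 other sex determination genes, 13 were measured. They had 3 calls higher and 2 lower by genotype in fed larvae, 3 higher and 1 lower by genotype in fasted larvae, 3 higher and 5 lower on fasting in controls, and 1 higher and 1 lower on fasting in mutants. Called in either direction were thus 5, 4, 8 and 2 of 13, below the 51.5%, 44.7%, 69.7% and 48.7% of all genes. dsx, the switch gene whose male and female splice forms direct somatic sex, had the largest differences of the list. It was at 5.02 to 6.93 RPM in fed controls, 13.3 to 14.7 RPM in fed mutants, 1.48 to 2.78 RPM in fasted controls and 5.61 to 6.09 RPM in fasted mutants. Its log2 fold changes by genotype were 1.13 (± 0.12 SE, adjusted p = 3.28e-06 by limma) in fed and 1.19 (± 0.12 SE, adjusted p = 1.32e-05 by limma) in fasted larvae. On fasting it fell, by 1.20 in controls and by 1.15 in mutants on the log2 scale, with limma adjusted p-values of 4.32e-07 and 2.05e-06. fru, the other splicing target of Tra, rose on fasting by 0.81 in controls (limma adjusted p = 6.84e-07) and 0.49 in mutants (limma adjusted p = 0.000197). It was lower in fasted mutants than in fasted controls (-0.31, limma adjusted p = 0.00941), and in fed larvae its mean was 148 RPM in both groups. The RNA-binding partner tra2 was higher in fasted mutants (0.27, limma adjusted p = 0.0389), as was the corepressor gro (0.18, limma adjusted p = 0.0255). The splicing cofactors of Sxl, snf and fl(2)d, were lower in fed mutants (-0.25 and -0.21, limma adjusted p = 0.0119 and 0.014), and da and dpn, which act on the early Sxl promoter, were higher (0.29 and 0.31, limma adjusted p = 0.0259 and 0.028).

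**Figure D3:**
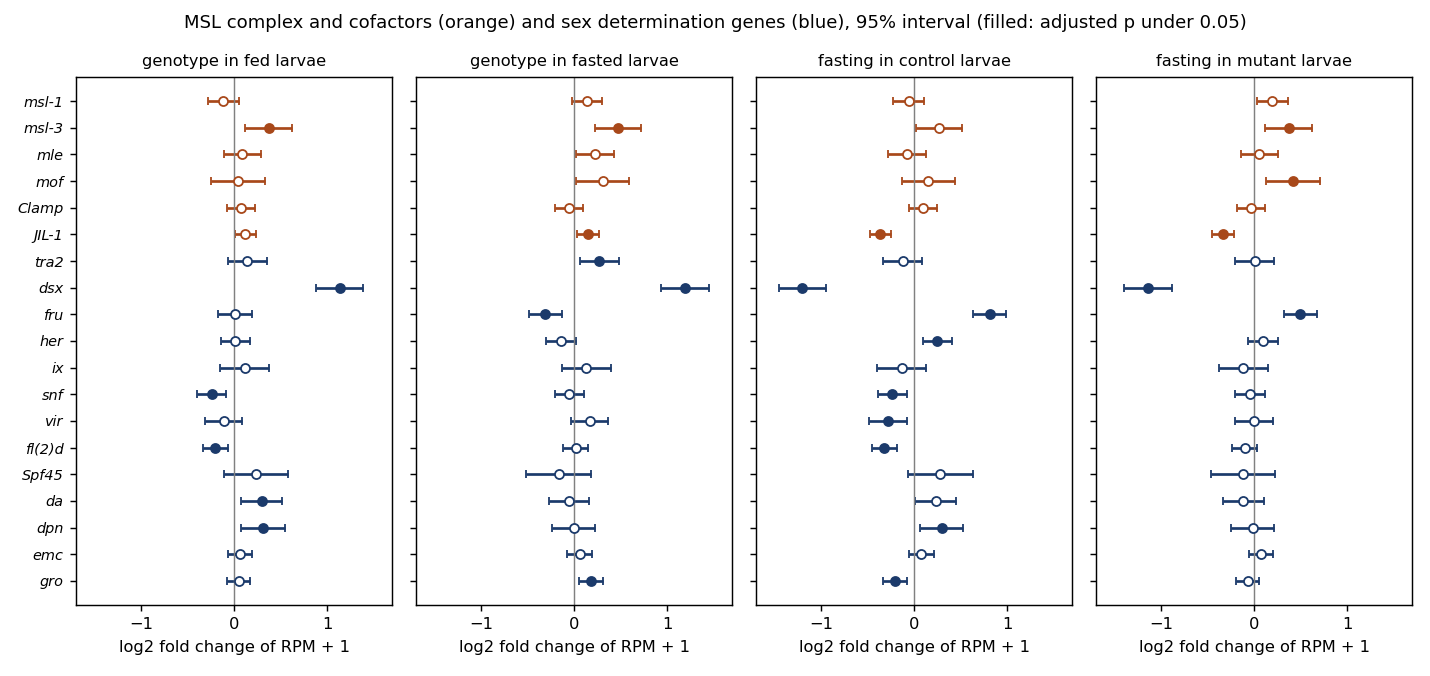
Log2 fold change of RPM + 1 (horizontal axis) with its 95% interval for the 6 genes of the MSL complex and its cofactors (orange) and 13 sex determination genes (blue) in the 4 comparisons, with filled points for a limma adjusted p under 0.05. dsx is the farthest from 0 in each panel, higher in mutants and lower on fasting.

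Most measured markers of male germ cells had higher levels in mutants. Of 35 testis and spermatocyte genes, 26 were measured, and their summed level was 63.5 to 116 RPM in fed controls, 271 to 405 RPM in fed mutants, 87.1 to 252 RPM in fasted controls and 244 to 374 RPM in fasted mutants. By genotype the exact permutation test of this sum gave p = 0.0286 (adjusted 0.0686) in fed and p = 0.0571 (adjusted 0.098) in fasted larvae. On fasting the adjusted p of the same test was 0.214 in controls and 0.8 in mutants. In fed controls about as much of the sum came from bol, a meiotic translation factor, at 42.6 to 49.8 RPM, as from the other 25 genes, and bol did not rise in mutants (-0.18, limma adjusted p = 0.0888, in fed and -0.27, limma adjusted p = 0.0217, in fasted larvae). The other 25 summed to 13.7 to 66.7 RPM in fed controls, 229 to 363 RPM in fed mutants, 54.8 to 213 RPM in fasted controls and 215 to 343 RPM in fasted mutants. In fed control replicate 4, 15 of these 25 had more than 3 reads and 2 had none, in replicate 3 it was 22 with 1 at none, and in the other 14 libraries at least 24. By genotype 24 were higher and 0 lower in fed larvae, with a median log2 fold change of 1.60, beside 25.6% of all genes higher and 26% lower. In fasted larvae 20 were higher and 1 lower, with a median of 1.03, beside 23.8% and 20.9%, against all-gene medians of -0.02 and 0.00. Some of these genes had fed control means under 1 RPM, down to 0.263 RPM. Such genes met the authors' filter only through groups where they were higher, so these counts are in part fixed by it. On fasting 18 were higher and 1 lower in controls (median 0.81, beside 37.5% and 32.2% of all genes), and 0 higher and 1 lower in mutants (median 0.13, beside 23.7% and 25%), the 1 that was lower being bol each time. S-Lap1, a sperm leucyl aminopeptidase, betaTub85D, the testis tubulin, and Mst77F, a sperm chromatin protein, had the largest differences in fed larvae, at 3.32 (SE 0.50), 3.26 (SE 0.46) and 3.14 (SE 0.45), with limma adjusted p-values of 7.42e-05, 3.93e-05 and 4.95e-05. In whole larvae, fewer cells of a type and less RNA per cell cannot be told apart.

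Y-linked genes are carried by males alone. Of 12 such genes (14 symbols with older spellings), ARY and FDY were measured. ARY was at 1 to 3 reads in each fed control library, 17 to 42 in fed mutants, 6 to 24 in fasted controls and 12 to 48 in fasted mutants. FDY had 10 to 60 reads in fed controls and 72 to 124 in fed mutants, then 35 to 96 in fasted controls and 114 to 245 in fasted mutants. FDY has a near-identical autosomal parent gene, vig2, so its reads are uncertain. Both were called higher by genotype in fed and fasted larvae and on fasting in controls, where 25.6%, 23.8% and 37.5% of all genes were. ARY met the authors' filter only in the mutant groups. A single ARY read, as in the lowest fed control library, is below the 3 reads taken here as the floor. Transcripts typical of males were thus found in every library through both roX RNAs and most testis genes. The Y-linked reads of fed controls were too few or too uncertain to add to this. Of the genes listed as yolk protein or ovary genes, Yp3 (4 to 123 reads), grk (180 to 484) and fs(1)K10 (348 to 551) had reads in every library as well. Which cells these reads came from was not tested. The presence of reads alone thus does not answer the question of sex. In addition, both roX RNAs were low per length, roX2 had as few as 6 reads in a fasted control library, and the reads of roX1 may include those of ec. The share of females in a library, if any, is measured by none of these values.

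Genes listed as markers of female germ cells were few. Of 20 ovary and eggshell genes, grk and fs(1)K10 were measured, neither of them called by genotype. In fed control replicate 4 they summed to 47.4 RPM, within the fed control range of 45.1 to 48.9 RPM. The sum of the germ line genes of both sexes was lowest in that library (19.4 RPM). grk, the germ line ligand of the EGF receptor, was at 22.2 to 24.6 RPM in fed controls and 10.5 to 14.4 RPM in fasted controls (log2 fold change -0.91, limma adjusted p = 1.82e-07). Of 9 measured germ line genes that both sexes express, 2 were called higher in fed mutants, AGO3 and ovo, and 1 in fasted mutants, vas. The shares of all genes were 25.6% and 23.8%. Few were called, but all 9 had positive log2 fold changes by genotype, with lowest values of 0.16 in fed and 0.034 in fasted larvae. Their medians were 0.37 and 0.54, against -0.02 and 0.00 over all genes. The 9 genes summed to 19.4 to 40.1 RPM in fed controls and 41.2 to 50.9 RPM in fed mutants. In fasted larvae the sums were 23.2 to 63.6 RPM in controls and 49.7 to 60.7 RPM in mutants. By genotype the exact permutation test of these sums gave p = 0.0286 (adjusted 0.0686) in fed and p = 0.257 (adjusted 0.343) in fasted larvae. The 5 measured larval fat body genes, led by the storage proteins Lsp1alpha, Lsp1beta and Lsp1gamma, summed to 10257 to 31249 RPM in fed controls, 86217 to 105243 RPM in fed mutants, 385 to 1406 RPM in fasted controls and 10590 to 17579 RPM in fasted mutants. Nearly all of this sum was the 3 Lsp1 genes, which were called higher in mutants in both states. Of the other 2 genes, to was called lower in mutants in both states (-0.40 and -0.43, limma adjusted p = 0.00248 and 0.00334), and Npc2b higher in fed (0.22, limma adjusted p = 0.028) and lower in fasted mutants (-0.49, limma adjusted p = 0.00031). The part of this shift in the levels of the 6 genes was not tested.

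The control libraries were split in the same way by the testis genes, by most germ line and MSL complex genes and by some of the 6 genes. In fed controls, replicates 1 and 2 were both above replicates 3 and 4 for roX1, roX2 and msl-2, against 23.2% of all genes. The same held for 22 of 26 testis genes, 7 of 9 germ line genes of both sexes and 4 of 6 MSL complex and cofactor genes. In fasted controls, replicates 1 and 4 were both above replicates 2 and 3 for roX1, roX2 and msl-2, against 28.8% of all genes. There it held for 25 of 26 testis genes, 8 of 9 germ line genes and 4 of 6 MSL complex and cofactor genes. This order was picked from these same values, so the shares of all genes beside it are a description and no support. No test was made of it. Of the Y-linked genes, 2 of 2 had it in fed controls but 1 of 2 in fasted controls, where FDY was highest in replicate 3 (5.67 RPM). Sxl had the opposite order in fed controls, where replicates 1 and 2 were the lowest, an order found in 12.3% of all genes.

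In a fit with the mean log2 level of the 26 testis genes as a further term, added after seeing the data, 0 of the 6 genes were called by genotype in limma, with 3 at an unadjusted p under 0.05 in fed and 1 in fasted larvae, but only 13.8% and 12.2% of all genes were still called there. The log2 fold change of msl-2 was then -0.54 (limma adjusted p = 0.0508) in fed and -0.01 (limma adjusted p = 0.96) in fasted larvae. That of roX2 was -0.22 (limma adjusted p = 0.645) and 0.16 (limma adjusted p = 0.629), and that of tra was -0.24 (limma adjusted p = 0.455) and -0.33 (limma adjusted p = 0.125). The fasting calls of roX1 were kept (0.39, limma adjusted p = 0.0122, in controls and 0.83, limma adjusted p = 5.14e-06, in mutants). The testis level and genotype had a Pearson r of 0.814 over the 16 libraries, so genotype and testis level cannot be told apart by this fit.

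**Figure D4:**
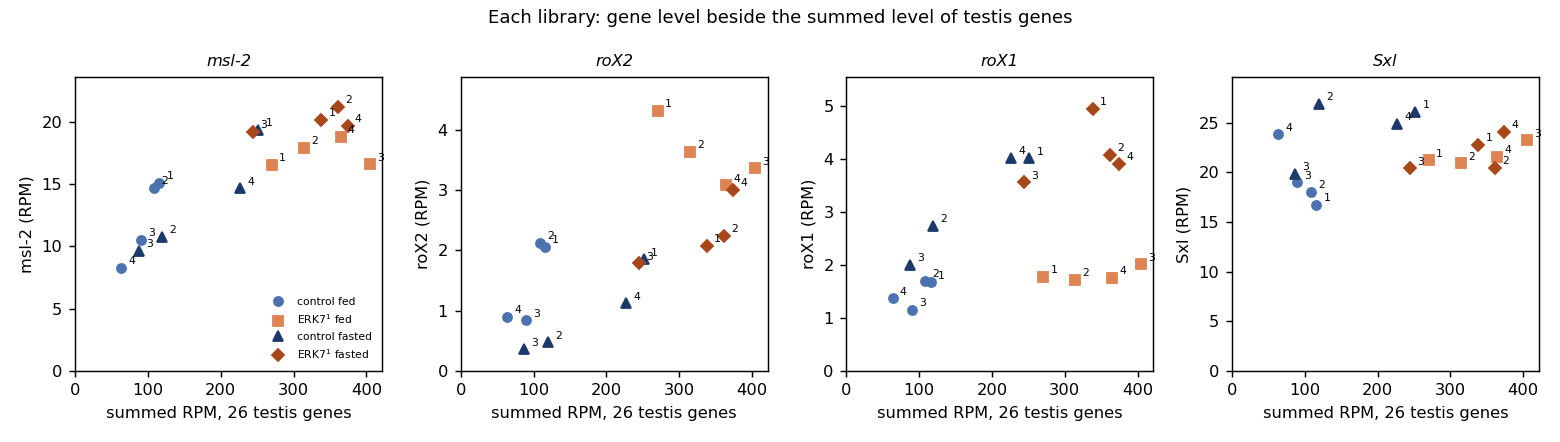
Level of msl-2, roX2, roX1 and Sxl in RPM (vertical axes) beside the summed RPM of 26 testis genes, bol included (horizontal axes) in each of the 16 libraries, with the replicate number at each point and a symbol for each group. msl-2 is lowest in the control libraries with the least testis RNA (8.29 RPM at a sum of 63.5). At higher sums it does not follow the sum closely. It is at 19.3 RPM at a sum of 252 in fasted control replicate 1, and at 16.6 RPM at a sum of 405 in fed mutant replicate 3. roX1 stays at 1.72 to 2.02 RPM in fed mutants, the group with the sums up to 405.

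For the X chromosome as a whole, on which the MSL complex acts, the median log2 level of X-linked genes minus that of autosomal genes was -0.09 to -0.04 in fed controls, -0.16 to -0.14 in fed mutants, -0.21 to -0.13 in fasted controls and -0.22 to -0.19 in fasted mutants. The difference of fed mutants from fed controls was -0.08, without overlap (two-sided exact permutation test, p = 0.0286, the smallest that 4 against 4 allow). On fasting the difference was -0.11 in controls and -0.06 in mutants, each with an exact permutation p of 0.0286, and genotype in fasted larvae gave a difference of -0.03 (exact permutation p = 0.286). After adjustment over the 12 exact permutation tests made, those of the testis and germ line sums included, the smallest p was 0.0686. That value rests on the smallest p the exact test allows and so says little about the size of these differences. By gene, 22.5% of 1648 X-linked genes were called higher and 29.6% lower in fed mutants, beside 25.6% and 26% of all genes.

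The genes most like each of the 6 in pattern were found by Pearson r of log2(RPM + 1) over the 16 libraries, which share group and library effects, as a description only. For roX1 they were CG42324 (r = 0.963), Pih1D1 (0.941) and Cpr47Eb (0.939). For roX2 they were fzy (0.955), Rrp1 (0.953) and Klp61F (0.953), of which fzy activates the anaphase-promoting complex and Klp61F is a mitotic kinesin. For msl-2 they were SA-2 (0.974), a cohesin subunit, RpS19b (0.970), a ribosomal protein of the germ line, and CG12477 (0.970). For Sxl they were CG9272 (0.840), His3.3B (0.836) and CG7407 (0.834), for tra CG11671 (0.924), CG10932 (0.919) and CG12730 (0.896), and for Yp3 HtrA2 (0.754), l(2)dtl (0.741) and velo (0.721). The likeness was thus closest for msl-2, roX1 and roX2 and weakest for Yp3. Having been chosen for likeness to msl-2, SA-2 was also called higher in mutants, by 0.89 (limma adjusted p = 0.0248) in fed and 0.90 (limma adjusted p = 0.0292) in fasted larvae, and RpS19b by 1.07 (limma adjusted p = 0.0209) and 0.93 (limma adjusted p = 0.0459). CG12477 was at 0.85 (limma adjusted p = 0.0504), not called, in fed larvae and was higher by 0.96 (limma adjusted p = 0.0347) in fasted larvae. Genes picked for likeness to msl-2 over the same libraries share its differences by that choice. Their calls are therefore no separate evidence.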

How the data were processed

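RNA of whole larvae was sequenced in 16 libraries. Per the labels and methods, the authors trimmed reads with Trimmomatic, mapped them with TopHat2 2.1.0 to FlyBase release 6.10, counted them on exons with HTSeq 2.7.6 and removed genes of very low count. They deposited signal values on a linear scale, 1 column per library, normalized to library size. All values were whole multiples of 1 read (tolerance 0.01), so counts of reads were recovered from the deposited values. The authors' columns of log2 fold changes, t values and p-values were not used.

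log2(RPM + 1) was fitted with limma 3.58.1 in R 4.3.3 as 4 group means over 16 libraries, with Benjamini-Hochberg adjustment over 10459 genes at 0.05. edgeR 4.0.16 (quasi-likelihood) and DESeq2 1.42.0 on the recovered reads were alternatives, beside a pseudocount of 0.1, quantile normalization, library median centring, removal of genes under the 25th percentile, a variance trend with robust eBayes, only the groups compared, a replicate block and leaving out each library. Single values were compared by two-sided exact permutation tests. The scripts were tested on simulated data. Groups came from the sample titles. Gene positions were read from the Ensembl annotation of this assembly, which held 10305 of the genes. The text names all genes given by symbol, at most 4 called genes of each further list with the largest change (any of the MSL and sex determination lists), and the 3 genes most like each. The genes and lists were chosen with earlier results of these data known. Replicates of a group differed by more than sampling noise (chi-square per degree of freedom 12.2 to 51.1). Same-numbered libraries of different groups were not more alike (residual r -0.324 to 0.291 over 24 pairs, 6 above 0.1), and no pairing was used.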

Additional observations from a re-analysis of the deposited data

Results flagged for a closer look

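Yp3 in fasted control replicate 4 was at 5.91 RPM (5.908), far from the other 3 fasted control libraries at 0.211 to 0.945 RPM. The gap to the nearest library was 0.871 of the range of the group, above Dixon's critical value of 0.829 for 4 samples. This was 1 of 24 groups of 4 libraries checked, and chance alone gives about 1 in 20. Without this library the log2 fold change of Yp3 by genotype in fasted larvae was 0.18 in place of -0.34, neither called in limma (adjusted p = 0.746 and 0.59).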

How the results depend on the processing

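Of 562 values of single genes under the alternatives, 492 kept direction and side of the threshold, 22 lost and 17 gained a call, and 31 changed sign. The number of the 6 genes called was 2 on fasting in controls, and 4 with quantile normalization (2 higher and 2 lower), 1 without genes under the 25th percentile, 1 with only the groups compared and 1 to 3 without any 1 library. By genotype in fed larvae it was 4, and 1 without the low genes, 0 with the testis term and 2 to 4 without 1 library. By genotype in fasted larvae it was 3, then 1, 0 and 2 to 4. On fasting in mutants it was 1, and 2 with quantile normalization, 0 without the low genes, 3 with only the groups compared, 2 with the testis term and 1 without any 1 library. For the interaction it was 0, and 1 with quantile normalization (roX1, 0.47), 2 with the testis term (roX1, 0.44, and msl-2, 0.53) and 0 to 1 without 1 library. The filter removes roX1, roX2, Yp3 and tra themselves, so 2 genes remain. In the order above, the main fit called 69.7%, 51.5%, 44.7%, 48.7% and 31.9% of all genes. The shares were 63%, 56.9%, 46.6%, 49.2% and 29% with quantile normalization. With the testis term they were 60.1%, 13.8%, 12.2%, 52% and 31.1%. With the testis term, all genes called by genotype went from 5390 to 1445 in fed larvae, of which 28.2% were higher in place of 49.6%, and from 4678 to 1273 in fasted larvae. The cause of other moves was not tested.

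Signs turned as follows, on the log2 scale. The testis term turned msl-2 on fasting in controls (-0.39), roX1 (-0.51), roX2 (-0.22) and msl-2 (-0.54) by genotype in fed larvae, roX1 (-0.070) and msl-2 (-0.013) by genotype in fasted larvae, and roX2 in the interaction (0.39). Quantile normalization turned roX1 by genotype in fed larvae (-0.30) and, in the interaction, roX2 (0.13) and tra (0.29). In the interaction roX2 was also 0.059 with a pseudocount of 0.1 and 0.012 in DESeq2. Without any 1 library, the range on fasting in controls was -0.90 to 0.040 for Yp3 and -0.036 to 0.28 for msl-2. By genotype in fasted larvae it was -0.66 to 0.18 for Yp3, and on fasting in mutants -0.033 to 0.043 for Sxl. In the interaction it was -0.025 to 0.22 for roX1, -0.28 to 0.074 for roX2, -0.087 to 0.23 for msl-2 and -0.093 to 0.064 for tra. None of the values that turned was called except those of roX1 under quantile normalization (adjusted p = 0.0193 in limma) and of msl-2 on fasting in controls with the testis term (adjusted p = 0.00937 in limma).

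With the replicate number as a block, the genes called were 2, 3, 3, 1 and 0 in the order above, the change being the loss of Yp3 (-1.24, limma adjusted p = 0.0713), and the block changed no other call of the 6 genes. The samples share only a number. Depth limits tra, Yp3 and roX most, with 4 to 123 reads per library.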
